A study of Mus musculus with 21 samples.

Results

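The guanylate-binding proteins (GBPs) and the immunity-related GTPases (IRGs) are interferon-inducible GTPases of macrophages. The 10 genes Gbp2, Gbp3, Gbp5, Gbp6, Gbp7, Gbp8, Gbp9, Irgm1, Igtp and Iigp1 were taken by their Ensembl identifiers from a table of 23250 genes. All 10 passed the filter on low counts, among 13468 genes that did. Their levels were read in 21 RNA-seq libraries of mouse bone-marrow-derived macrophages, in 7 groups of 3 libraries. Bone marrow of mice of C57BL/6J background was kept for 7 days in medium with supernatant of a line that makes GM-CSF. By the series' design text the cells lacked the mannose receptor (MR), an endocytic lectin encoded by Mrc1; this is taken here to hold for every group, controls included, although the labels of single libraries do not state it. The cells received FcMR, in which the Fc region of human IgG1 is joined to the extracellular region of the MR, or an isotype control, for 4, 12 or 24 h. The seventh group was untreated at 0 h, so there was no untreated control for the later times. Doses and the sex and age of the mice are not given in the labels. No label says that the replicates came from separate cultures or animals, so the p-values measure only the spread between these libraries, which may be technical.

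Interferon-gamma and the type I interferons signal through receptors coupled to Janus kinases, and the interferon regulatory factors take part in switching on GBP and IRG genes. The proteins gather on vacuoles that hold pathogens and on bacteria in the cytosol, and GBPs promote the sensing of bacterial products by inflammasomes. Gbp2 and Gbp5 end in a signal for a lipid anchor (a prenyl group) that ties them to membranes. Among the IRGs, Irgm1 and Igtp (Irgm3) are regulators that sit on the cell's own membranes, and Iigp1 (Irga6) is an effector that loads onto the vacuole of the parasite Toxoplasma.

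Most of the genes lie in family clusters. In GRCm38 with GENCODE M21, the GBP cluster on chromosome 3 holds, all on the plus strand, Gbp5 (ENSMUSG00000105504.4, chr3:142493978-142522344), Gbp7 (ENSMUSG00000040253.15, chr3:142530342-142550149), Gbp3 (ENSMUSG00000028268.14, chr3:142560026-142573209) and Gbp2 (ENSMUSG00000028270.12, chr3:142620602-142638008). The cluster on chromosome 5 holds, on the minus strand, Gbp8 (ENSMUSG00000034438.16, chr5:105014150-105139540), Gbp9 (ENSMUSG00000029298.15, chr5:105077630-105139539) and Gbp6 (ENSMUSG00000104713.4, chr5:105270702-105293698). On chromosome 11 lie Irgm1 (ENSMUSG00000046879.7, chr11:48861968-48871683, minus strand) and Igtp (ENSMUSG00000078853.8, chr11:58199556-58207591, plus strand). Iigp1 is ENSMUSG00000054072.11 in the table. Paralogs share sequence, which bears on estimated counts. Of the 31-base words in the Gbp6 transcripts, 74.25% also occurred in another gene, 67.8% in the overlapping model Gm43302 and 51.4% in Gbp10, so the split of reads between them is uncertain. The share was 31.1% for Gbp8, 18.3% for Gbp9, 15.9% for Igtp (with Irgm2) and 14.7% for Gbp7, and it was between 2.88% and 6.92% for the other 5 genes.

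Sequence upstream of the RefSeq starts (GRCm38.p6) was at hand for 6 of the 10 genes, but not for Gbp6, Gbp8, Gbp9 and Iigp1. It is shown because factors of the interferon pathway can bind such stretches. Whether they did so in these cells was not tested. Capitals mark the letters GAAA, then any NN, then GAAA, read on either strand, the core of the interferon-stimulated response element (ISRE) bound by interferon regulatory factors. Each stretch runs 5′ to 3′ on the gene's strand and holds at most 30 bases that GENCODE annotates as exon, which is why that of Irgm1 is short. The stretches of Irgm1, all of it exon, and Gbp5 lie within the GENCODE bounds of their genes given above. Both are upstream only of a RefSeq start. The last 30 bases of the Gbp2 stretch, which hold its marked letters, also lie within the bounds of Gbp2. So do the last 18 bases of the Gbp3 stretch, but its marked letters lie before them.
Gbp2, chr3:142620483-142620631, plus strand: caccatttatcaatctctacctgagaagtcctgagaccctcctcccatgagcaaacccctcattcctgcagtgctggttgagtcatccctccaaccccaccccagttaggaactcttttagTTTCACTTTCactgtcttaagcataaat
Gbp3, chr3:142559864-142560043, plus strand: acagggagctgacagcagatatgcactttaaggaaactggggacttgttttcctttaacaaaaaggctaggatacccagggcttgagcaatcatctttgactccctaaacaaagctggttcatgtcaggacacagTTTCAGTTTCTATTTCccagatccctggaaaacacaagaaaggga
Gbp5, chr3:142496754-142496929, plus strand: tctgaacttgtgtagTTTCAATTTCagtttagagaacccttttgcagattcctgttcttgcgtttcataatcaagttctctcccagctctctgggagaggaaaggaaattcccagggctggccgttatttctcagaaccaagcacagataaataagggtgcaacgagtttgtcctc
Gbp7, chr3:142530156-142530335, plus strand: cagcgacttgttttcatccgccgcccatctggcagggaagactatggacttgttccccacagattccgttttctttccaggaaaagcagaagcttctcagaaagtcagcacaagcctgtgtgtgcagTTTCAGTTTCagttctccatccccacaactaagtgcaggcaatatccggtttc
Irgm1, chr11:48871428-48871457, minus strand: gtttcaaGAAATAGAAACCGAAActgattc
Igtp, chr11:58199376-58199555, plus strand: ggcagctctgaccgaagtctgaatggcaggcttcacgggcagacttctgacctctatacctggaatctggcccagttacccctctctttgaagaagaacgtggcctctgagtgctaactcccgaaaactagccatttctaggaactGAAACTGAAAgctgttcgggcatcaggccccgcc

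All 6 genes held the ISRE core in the 250 bases before a RefSeq start, against 3.46% of the 27025 genes with such a window. The match began 59 bases before the start in Gbp2, 53 in Gbp7, 34 in Igtp and 165 in Gbp5. Gbp3 and Irgm1 each held a pair of overlapping matches, beginning 45 and 39 bases before the start in Gbp3 and 30 and 24 bases before it in Irgm1. The other RefSeq start of Gbp3 had no match. The letters TTCNNNGAA, which read the same on both strands and are the core of the gamma-interferon-activated sequence, occurred in 8.13% of genes and in 3 of the 6, Gbp5, Gbp7 and Igtp. They began 245 and 52 bases before the start in Gbp5, 106 and 87 in Gbp7 and 45 in Igtp, and no match overlapped an ISRE core. Such matches describe letters, not occupied sites, and a missing match says only that these letters are not in the window.

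The libraries held between 5532225 and 66729533 estimated counts, so that 3 counts stood for 0.0454 to 0.559 CPM, the usual count scaled to library size, here after correction by the trimmed mean of M values (TMM). Mrc1 was at 0 to 0.589 CPM in the 21 libraries, from 0 to 11 counts. No pair of replicates agreed within sampling noise, since the chi-square per degree of freedom was at least 3.09. The summed level of 8 macrophage markers was 20538 to 35367 CPM, that of 7 T or NK cell genes 0.567 to 2.45 CPM, that of 5 B cell genes 3.5 to 8.14 CPM, that of 5 mast cell or basophil genes 9.04 to 39.9 CPM and that of 8 dendritic cell genes 1357 to 1880 CPM. Some of these sums cover members that moved in opposite directions. With FcMR over isotype at 24 h, 2 of the 8 macrophage markers were higher and 4 lower, from −1.16 ± 0.10 for Fcgr1 to 2.19 ± 0.28 for Cd14, and 2 dendritic cell genes were higher and 1 lower. With isotype over untreated at 12 h, 3 dendritic cell genes were higher and 3 lower. Of the 5 mast cell or basophil genes 4 were lower in that comparison. It called 41.6% of all tested genes in either direction and 22% higher. The part of these marker genes in the results was not tested. The 8 granulocyte markers summed to 1398 to 1623 CPM in untreated cells, 203.8 to 227.8 CPM after 24 h of FcMR and 183 to 218.2 CPM after 24 h of isotype. These close sums also cover opposite moves. With FcMR over isotype at 24 h, 1 of the 8 was called higher and 2 lower, beside 20.9% of all tested genes called in either direction. Libraries of 1 group also differed in their tilt with GC content, the mean log2 deviation of the 10% of genes richest in GC minus that of the poorest 10%. It was −0.731 in replicate 1 of FcMR 12 h against 0.70 and 0.80 in the other two, and −1.26 in replicate 2 of FcMR 24 h against −0.346 and 0.410. The library numbers of replicate 1 of FcMR 12 h and replicate 3 of isotype 4 h are out of the order of their titles.

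The 10 genes together took 211.9 to 269.6 CPM in untreated cells and 5421 to 5548 CPM after 4 h of FcMR, against 2401 to 2735 CPM after 4 h of isotype control. At 12 h the sum was 4089 to 5361 CPM with FcMR and 1875 to 2015 CPM with isotype. By 24 h it had come down to 1388 to 2114 CPM with FcMR and 540.3 to 572 CPM with isotype. The FcMR and isotype libraries did not overlap in this sum at any of the times, and every treated library lay above the untreated ones.

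**Figure D1:**
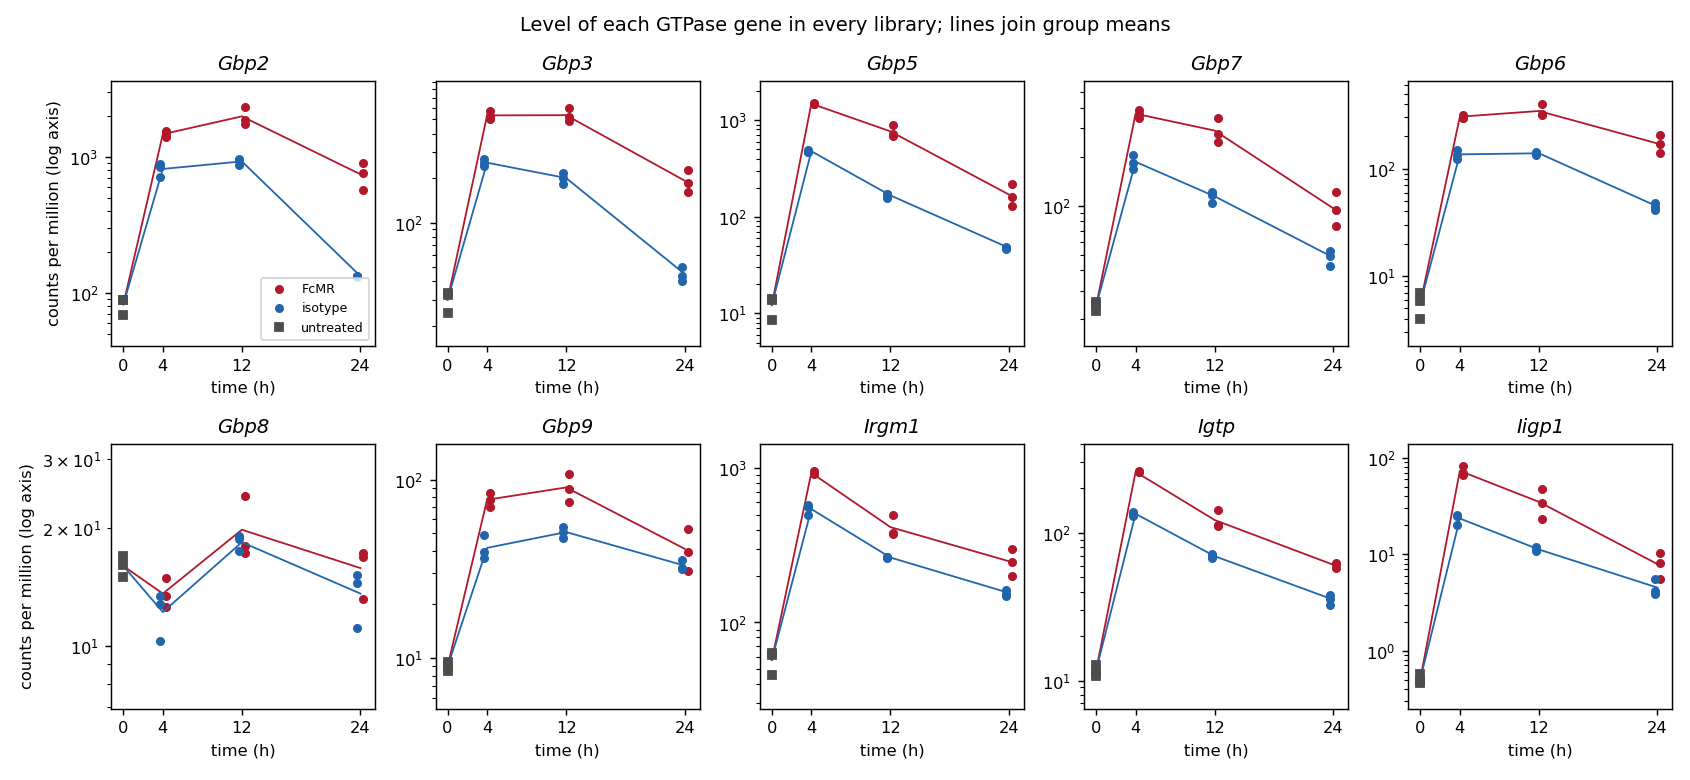
Level of each of the 10 GTPase genes in CPM (log axis) against time in hours, with 1 point per library and lines joining group means (n = 3). In 9 panels all treated libraries lie above the untreated ones and FcMR lies above isotype at 4 and 12 h, while in the panel of Gbp8 all libraries lie between 10.3 and 24.2.

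The isotype groups stood far above untreated cells. Against untreated cells 9 of the 10 genes rose at 4 h, 12 h and 24 h, all but Gbp8 (edgeR's quasi-likelihood test with Benjamini-Hochberg adjustment over all genes tested, adjusted p under 0.05). The share of all tested genes called higher was 20.4%, 22% and 21.3% at these times, and 35.6%, 41.6% and 42.2% were called in either direction. Over the 10 genes the log2 fold changes had medians of 3.28, 2.66 and 1.53 in order of time, beside 0, 0.033 and −0.037 over all genes tested. The isotype libraries lay wholly above the untreated ones for 9, 10 and 9 of the genes, which 23.8%, 32.5% and 29.9% of all tested genes did. Treatment and time in culture cannot be told apart in these comparisons. In bulk RNA, fewer cells of a type and less RNA per cell cannot be told apart either.

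Gbp5, the guanylate-binding protein linked to assembly of the NLRP3 inflammasome, made the steepest rise of the GBPs at 4 h of isotype. It was at 14.1, 13.9 and 8.5 CPM in untreated cells and at 472.1, 484.9 and 472.4 CPM after 4 h of isotype, which on the log2 scale is 5.29 ± 0.20 (± SE; adjusted p = 1.28e-12 by edgeR). Iigp1, the effector IRG, went from 0.486, 0.46 and 0.572 CPM, or 5, 10 and 7 counts, to 25.4, 25.1 and 19.9 CPM, or 5.53 ± 0.32 on the log2 scale (edgeR adjusted p = 3.00e-10). No untreated library came near any isotype library for either gene. Gbp6 followed with 4.61 ± 0.18 (edgeR adjusted p = 1.34e-12), and the other 6 genes that rose at 4 h had log2 fold changes between 2.20 for Gbp9 and 3.53 for Igtp. At 24 h the rise that was left was smallest in Gbp3 (0.58 ± 0.14, edgeR adjusted p = 0.00231) and Gbp2 (0.69 ± 0.15, adjusted p = 0.000948) among the 9 genes, and greatest in Iigp1 (3.14 ± 0.35, adjusted p = 1.22e-06).

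Levels were higher with FcMR than with isotype at each time for most of the genes. At 4 h 9 of the 10 genes were higher, all but Gbp8, where 8.62% of all tested genes were called higher and 17.7% in either direction. At 12 h 9 were higher, again all but Gbp8, against 8.61% and 16.1% of all tested genes. At 24 h 8 were higher, all but Gbp8 and Gbp9, against 11.4% and 20.9%. None of the 10 was called lower at any time. The median log2 fold change over the 10 genes was 0.96, 1.20 and 0.93, beside −0.073, −0.017 and 0.006 over all genes tested. The FcMR libraries lay wholly above the isotype libraries for 9, 9 and 7 of the genes, which 13.5%, 17.5% and 17.8% of all tested genes did. At 4 h the split of all calls depended on the scaling, with 1161 of 2390 called genes higher under TMM and 1412 of 2251 under relative log expression (RLE) factors, while the 9 genes were called under both.

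**Figure D2:**
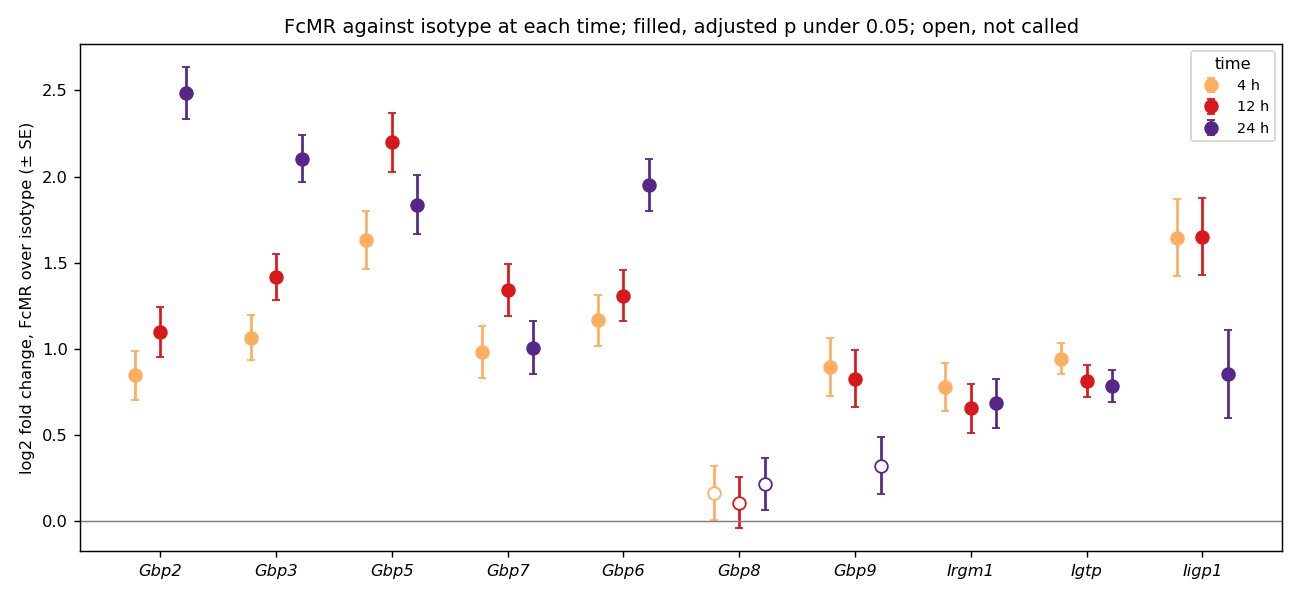
Log2 fold change of FcMR over isotype with its standard error for each gene at 4, 12 and 24 h, from 1 edgeR fit of 21 libraries. The points of Gbp2 go from 0.85 at 4 h to 2.48 at 24 h, those of Igtp lie between 0.78 and 0.94, and those of Gbp8 lie between 0.11 and 0.22.

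Gbp2, a prenylated GBP that gathers on vacuoles and bacteria, showed the widest change of this difference with time. At 4 h its level was 1540, 1459 and 1391 CPM with FcMR and 891.4, 847.1 and 705.1 CPM with isotype, a log2 fold change of 0.85 ± 0.14 (edgeR adjusted p = 0.000471). At 12 h it was 2320, 1868 and 1751 CPM against 865.9, 963.2 and 945.6 CPM (1.10 ± 0.15, edgeR adjusted p = 2.95e-05). The groups did not overlap, and the FcMR libraries at 12 h were the highest of the 21 for this gene. At 24 h the FcMR libraries still held 761.7, 897.2 and 573.2 CPM, whereas the isotype libraries had come down to 131.1, 133.8 and 134.6 CPM. The log2 fold change was then 2.48 ± 0.15 (edgeR adjusted p = 1.95e-09), or 5.59-fold. From 4 h to 24 h Gbp2 fell by 2.61 ± 0.15 on the log2 scale under isotype and by 0.98 ± 0.15 under FcMR (edgeR adjusted p = 5.34e-10 and 2.28e-05). At 24 h the 3 FcMR libraries lay wholly above the isotype libraries and below those of FcMR at 4 h.

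Gbp3, which lies between Gbp7 and Gbp2 on chromosome 3, did likewise. Its isotype libraries read 270.3, 253.1 and 240.1 CPM at 4 h and 40.5, 43.5 and 50.3 CPM at 24 h, while its FcMR libraries read 503.1, 527 and 567.4 CPM and 186.7, 228.4 and 161.7 CPM. No FcMR library overlapped an isotype library of its time. The log2 fold change of FcMR over isotype was 1.07 ± 0.13, 1.42 ± 0.13 and 2.10 ± 0.14 at 4, 12 and 24 h (edgeR adjusted p = 2.13e-05, 6.41e-07 and 4.57e-09). Gbp6, of the cluster on chromosome 5, went from 1.17 ± 0.15 to 1.31 ± 0.15 and 1.95 ± 0.15 (edgeR adjusted p = 2.49e-05, 4.90e-06 and 3.89e-08), with 169.3, 204.8 and 141.3 CPM at 24 h under FcMR and 47.8, 41.3 and 44.3 CPM under isotype. These Gbp6 counts carry the uncertainty of sequence shared with Gm43302 and Gbp10. Gbp10 itself was estimated at no more than 2.79 CPM in any library. Of its 31-base words 89.8% also occurred in other genes, 80.8% in Gbp6, so that estimate is uncertain too.

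A joint edgeR test asked whether the FcMR difference changed between the times. It called 3 of the 10 genes, where it called 11% of all tested genes and 6.24% with the larger value at 24 h and 4.78% with the smaller. They were Gbp2 (24 h minus 4 h, 1.64 on the log2 scale, adjusted p = 7.26e-05), Gbp3 (1.04, adjusted p = 0.00376) and Gbp6 (0.79, adjusted p = 0.0346), and all had the larger difference at 24 h. The call of Gbp6 was lost under RLE factors (0.71, adjusted p = 0.0673), under the authors' factors (0.63, adjusted p = 0.091), with no filter (0.68, adjusted p = 0.103) and in 15 of the 18 fits that left out 1 library each. With a correction for GC content the test also called Gbp9 (−0.83, adjusted p = 0.000299) and Iigp1 (−1.10, adjusted p = 0.00433), whose difference was smaller at 24 h. Under that correction it called 2918 of all tested genes, against 1484 in the main fit. Without replicate 2 of FcMR 24 h the test called Gbp9 too (−0.80, adjusted p = 0.0408). Over all tested genes, 840 of 1484 called had the larger difference at 24 h under TMM and 587 of 1367 under RLE factors.

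Gbp5 showed the largest FcMR difference of the 10 genes at 12 h. With FcMR its libraries read 1479, 1452 and 1505 CPM at 4 h, 880.1, 725 and 687.7 CPM at 12 h and 160.4, 219 and 129.7 CPM at 24 h. With isotype they read 472.1, 484.9 and 472.4 CPM, then 156.4, 170.9 and 171.7 CPM, then 48.3, 46.5 and 48 CPM. Every FcMR library was above every isotype library of its time, and both arms were highest at 4 h. The log2 fold change was 1.63 ± 0.17, 2.20 ± 0.17 and 1.84 ± 0.17 (edgeR adjusted p = 3.14e-06, 7.63e-08 and 3.67e-07), and the joint test did not call a change between times (adjusted p = 0.248). From 4 h to 24 h Gbp5 fell by 3.32 ± 0.18 on the log2 scale under isotype and by 3.12 ± 0.18 under FcMR (edgeR adjusted p = 2.35e-10 and 1.95e-10).

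Gbp7, the neighbour of Gbp5 and Gbp3, had log2 fold changes of FcMR over isotype of 0.98 ± 0.15, 1.34 ± 0.15 and 1.01 ± 0.15 (edgeR adjusted p = 0.000165, 4.95e-06 and 8.87e-05). Its mean was 367.1 ± 21.9 CPM at 4 h and 96.4 ± 23.3 CPM at 24 h under FcMR, and 185.9 ± 18.4 and 48.1 ± 4.99 CPM under isotype (SD, n = 3). Gbp9, from the other cluster, was 1.86-fold and 1.78-fold higher with FcMR at 4 h and 12 h (log2 0.90 ± 0.17 and 0.83 ± 0.16, edgeR adjusted p = 0.00099 and 0.00138). For both genes the groups did not overlap at 4 h and 12 h. At 24 h the FcMR libraries of Gbp9 read 39.5, 52.7 and 30.7 CPM and its isotype libraries 31.9, 35.5 and 31.5 CPM. These groups overlapped, and the log2 fold change of 0.32 ± 0.17 was not called (edgeR adjusted p = 0.2). Without replicate 3 of FcMR 24 h it was called (0.49, adjusted p = 0.0347).

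Gbp8 stood apart from the other 9 genes in these values. It was at 15, 17 and 16.1 CPM in untreated cells and at 10.3 to 24.2 CPM in the 18 treated libraries. FcMR over isotype was 0.16 ± 0.16, 0.11 ± 0.15 and 0.22 ± 0.15 on the log2 scale (edgeR adjusted p = 0.541, 0.736 and 0.38), with overlapping groups, and at 12 h the sign turned without replicate 1 of FcMR 12 h (−0.060). Isotype over untreated was −0.40 ± 0.16, 0.20 ± 0.15 and −0.23 ± 0.15 (edgeR adjusted p = 0.0514, 0.311 and 0.232). At 4 h the isotype libraries lay wholly below the untreated ones, and at 12 h wholly above. The difference at 4 h was called under several alternatives, among them the authors' factors (−0.55, adjusted p = 0.0276), no filter (−0.51, adjusted p = 0.0313), the replicate block (−0.41, adjusted p = 0.0438) and a GC correction (−0.62, adjusted p = 0.000184). Over the 21 libraries the log2 level of Gbp8 had a Pearson r of 0.16 with the mean standardised level of the 10 genes, which includes it, where the other 9 genes lay between 0.94 and 0.983. The transcripts of Gbp8 and its neighbour Gbp9 overlap by 60 exonic bases on the same strand.

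Of the IRG regulators, Irgm1 was higher with FcMR at each time. It read 915, 934.8 and 953.8 CPM with FcMR and 562.3, 573.8 and 495.6 CPM with isotype at 4 h. At 24 h it read 247.7, 300.9 and 199.8 CPM against 163, 149.3 and 153.7 CPM. The groups did not overlap at either time, and the log2 fold changes were 0.78 ± 0.14, 0.66 ± 0.14 and 0.69 ± 0.14 at 4, 12 and 24 h (edgeR adjusted p = 0.000754, 0.00282 and 0.0016). Igtp, the other regulator, gave 0.94 ± 0.092, 0.81 ± 0.092 and 0.78 ± 0.094 (edgeR adjusted p = 1.80e-06, 5.17e-06 and 6.94e-06), with the smallest standard errors of the 10 genes. Its 4 h libraries read 262.8, 256 and 257.1 CPM with FcMR and 138.9, 135.7 and 129 CPM with isotype, without overlap. The joint test gave adjusted p = 0.93 for Irgm1 and 0.692 for Igtp, so no change of the FcMR difference with time was called for either.

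Iigp1, the effector, read 69.8, 67.1 and 83.3 CPM with FcMR and 25.4, 25.1 and 19.9 CPM with isotype at 4 h, which is 3.13-fold (log2 1.64 ± 0.22, edgeR adjusted p = 5.32e-05). At 12 h it read 47.8, 34.3 and 23 CPM against 10.7, 11.9 and 11 CPM (1.65 ± 0.23, edgeR adjusted p = 4.04e-05). At 24 h it had come down to 8.02, 10.2 and 5.49 CPM against 4.12, 3.86 and 5.54 CPM. The lowest FcMR library then lay just under the highest isotype library, and the log2 fold change was 0.85 ± 0.26 (edgeR adjusted p = 0.0227). That call was lost with limma-voom (0.90, adjusted p = 0.0838), in a fit of only the groups compared (0.83, adjusted p = 0.0788), without replicate 2 of FcMR 24 h (0.61, adjusted p = 0.186) and without replicate 1 (0.80, adjusted p = 0.088) or replicate 2 (0.76, adjusted p = 0.0963) of isotype 24 h.

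In 4 of the 7 groups the library with the lowest GC tilt had the highest sum of these genes. At 12 h this was replicate 1 of FcMR (5361 CPM against 4335 and 4089) and at 24 h replicate 2 of FcMR (2114 CPM against 1746 and 1388). With a correction of each library for GC content the genes called higher with FcMR numbered 9, 9 and 8 at the 3 times, and without both libraries out of title order they also numbered 9, 9 and 8. In both of these fits more of all tested genes were called at 4 h, as the counts in the closing sections show. The 5 fibroblast markers summed to 3.08 to 4.39 CPM with FcMR at 24 h and to 0.644 to 1.18 CPM with isotype, and over the 21 libraries to 0.644 to 4.39 CPM. Most of the difference was that of Dcn, which was at 2.26, 3.49 and 3.17 CPM with FcMR and 0.294, 0 and 0 CPM with isotype at 24 h (edgeR adjusted p = 0.000288). Col1a1 was at 0.514, 0.661 and 0.853 CPM against 0.883, 0.214 and 0.644 CPM (edgeR adjusted p = 0.876), Pdgfra at 0, 0.11 and 0.366 CPM against 0, 0.643 and 0 CPM, and Col1a2 and Col3a1 had at most 2 counts in each of these 6 libraries. The part of these genes in the 24 h result was not tested.

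Both arms came down with time. From 4 h to 24 h 8 of the 10 genes fell under isotype (22.1% of all tested genes were called lower, 39.0% in either direction) and 9 fell under FcMR (23.7% and 49.6%). The exceptions were Gbp8 in both arms and Gbp9 under isotype (−0.33 ± 0.17, edgeR adjusted p = 0.137). The median log2 fold change was −1.94 under isotype and −1.69 under FcMR, beside −0.063 and 0.012 over all genes. The time of the highest mean differed between the genes. Gbp5, Gbp7, Irgm1, Igtp and Iigp1 had it at 4 h in both arms, Gbp2, Gbp6, Gbp8 and Gbp9 had it at 12 h in both arms, and Gbp3 had it at 4 h under isotype and at 12 h under FcMR. Between Gbp3 at 4 h (532.5 ± 32.5 CPM) and at 12 h (534.2 ± 55.6 CPM) under FcMR the difference was less than the spread (SD, n = 3). The libraries at 4 h and 12 h also overlapped for Gbp2 under isotype, for Gbp7 under FcMR and for Gbp6 and Gbp9 in both arms, so the order of these times is not told apart there.

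Levels were compared between genes per kilobase of mean coding transcript length. This is an unweighted mean over the annotated coding transcripts, 6 for Gbp3 and 1 each for Gbp2, Gbp5 and Gbp6. Which transcripts these cells used was not tested, and the order of genes and their shares depend on that length. In untreated cells Gbp2 was highest at 32.8 ± 4.49 CPM per kilobase, with Irgm1 next at 26.3 ± 4.5 and overlapping it (SD, n = 3). Gbp3 came after them at 18.4 ± 3.02, and Iigp1 was lowest at 0.179 ± 0.0208. After 4 h of FcMR the order was Gbp2 (581.7 ± 29.5), Gbp5 (484 ± 8.66), Irgm1 (430.6 ± 8.94) and Gbp3 (327.9 ± 20), none overlapping the next. Gbp5 thus went from the seventh place to the second, and Gbp8 from the fourth to the last. Under isotype at 24 h Irgm1 led at 71.6 ± 3.23 and Gbp2 followed at 52.9 ± 0.745, without overlap. Under FcMR at 24 h Gbp2 led at 295.7 ± 64.7, and Gbp3 at 118.4 ± 20.8 overlapped Irgm1 at 115 ± 23.3. Of the 9 pairs of neighbours in the order, 1 to 3 overlapped in each of the 7 groups.

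The make-up of the family's RNA differed between the groups. Gbp2 took 30.8% ± 0.293 of the summed level per kilobase of the 10 genes in untreated cells and 40.5% ± 1.27 after 24 h of FcMR, but 22.7% ± 0.868 after 24 h of isotype (SD, n = 3). Irgm1 took 15.8% ± 0.0731 of it after 24 h of FcMR and 30.7% ± 0.906 after 24 h of isotype. Gbp5 took 3.69% ± 0.532 in untreated cells, and after 4 h it took 21.8% ± 0.156 with FcMR and 14.5% ± 1.02 with isotype. The FcMR and isotype libraries did not overlap in any of these pairs.

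The ratio of Gbp5 to Gbp2 per kilobase turned over between the arms. It was 0.13, 0.129 and 0.101 in untreated cells. At 4 h it was 0.791, 0.819 and 0.891 with FcMR and 0.436, 0.471 and 0.552 with isotype, and at 12 h it was 0.312, 0.32 and 0.323 against 0.149, 0.146 and 0.15. At 24 h it was 0.173, 0.201 and 0.186 with FcMR and 0.303, 0.286 and 0.294 with isotype. FcMR was thus wholly above isotype at 4 h and 12 h and wholly below it at 24 h. An exact permutation test of 3 libraries against 3 cannot give a two-sided p below 0.1, so no p is given for these ratios.

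**Figure D3:**
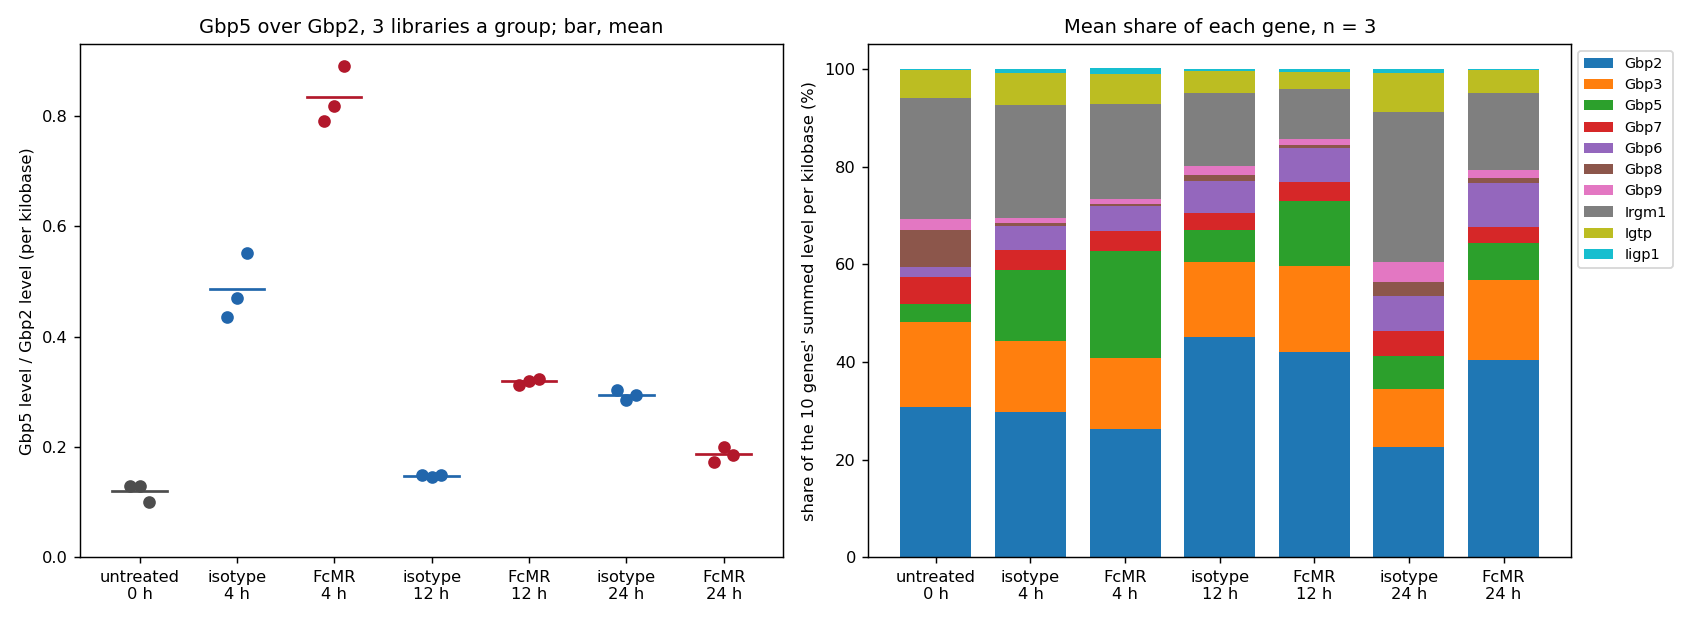
Left, the ratio of Gbp5 to Gbp2 (levels per kilobase) in each library, with a bar at the mean of 3, which reads 0.834, 0.319 and 0.187 under FcMR and 0.486, 0.148 and 0.294 under isotype at 4, 12 and 24 h. Right, the mean share in percent of each gene in the summed level per kilobase of the 10 genes, where Gbp2 fills 40.5% after 24 h of FcMR and 22.7% after 24 h of isotype.

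A list of 19 other GTPases (GBPs, IRGs, very large inducible GTPases and the dynamin-like Mx proteins) was read beside the 10 genes. With FcMR over isotype 10, 9 and 7 of the 19 rose at 4, 12 and 24 h and none was called lower, with medians of 0.76, 0.64 and 0.45 on the log2 scale. Of all tested genes 8.62%, 8.61% and 11.4% were called higher at these times, and their medians were −0.073, −0.017 and 0.006. Gbp4, whose transcripts overlap those of Gbp8 and Gbp9, gave 1.17 ± 0.16, 1.55 ± 0.16 and 1.27 ± 0.16 (edgeR adjusted p = 3.91e-05, 1.25e-06 and 1.52e-05). Irgm2, the regulator whose transcripts share 162 exonic bases with Igtp, was higher at 4 h and 12 h (0.79 ± 0.14 and 0.72 ± 0.14, edgeR adjusted p = 0.00063 and 0.00126) and at 24 h gave 0.33 ± 0.14 (adjusted p = 0.123). The highest and lowest of those called were Tgtp1 (1.90 ± 0.45) and Gm5431 (0.62 ± 0.18) at 4 h, Gbp11 (2.35 ± 0.52) and Mx1 (0.60 ± 0.14) at 12 h, and Gbp2b (2.63 ± 0.34) and Irgq (0.39 ± 0.11) at 24 h. Tgtp1 shares 84.4% of its 31-base words with other genes, so its counts are uncertain, and Gbp11 was at 2.06 CPM or less in each library. Gbp2b lies between Gbp3 and Gbp2 on chromosome 3. Its libraries at 24 h read 8.94, 11.7 and 6.34 CPM with FcMR and 1.77, 0.75 and 1.93 CPM with isotype, with no overlap. The joint test called a change of its FcMR difference between times (24 h minus 4 h, 2.95, edgeR adjusted p = 0.000919). On chromosome 3 it also called Gbp3 and Gbp2, but not Gbp7 (0.025, adjusted p = 0.441) or Gbp5 (0.202, adjusted p = 0.248). After 24 h of isotype Gbp2b, on 18, 7 and 15 counts, was below untreated cells (−2.02 ± 0.345, edgeR adjusted p = 0.000124). Under FcMR its change from 4 h to 24 h was −0.038 ± 0.283 (edgeR adjusted p = 0.927).

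Of 16 genes of interferon signalling 15 were tested, and with FcMR over isotype 9, 5 and 4 rose and 0, 0 and 2 fell at 4, 12 and 24 h, with medians of 0.55, 0.15 and 0.28. Of all tested genes 8.62%, 8.61% and 11.4% were called higher and 17.7%, 16.1% and 20.9% in either direction, with the medians given above. Irf1, a transcription factor that binds the ISRE, was higher by 0.80 ± 0.10, 0.61 ± 0.10 and 0.55 ± 0.10 (edgeR adjusted p = 2.70e-05, 0.000277 and 0.000695). Ifngr1, a chain of the interferon-gamma receptor, gave −0.34 ± 0.12 and −0.33 ± 0.11 at 4 h and 12 h (edgeR adjusted p = 0.0506 and 0.0553) and fell at 24 h (−0.55 ± 0.11, adjusted p = 0.00169). Ifngr2, the other chain, gave 0.21 ± 0.086, 0.24 ± 0.086 and 0.15 ± 0.086 (edgeR adjusted p = 0.101, 0.0635 and 0.256). Of the genes called in this list, the lowest at 4 h was Irf9 (0.25 ± 0.076), the highest at 12 h was Socs1 (1.52 ± 0.50, groups overlapping), and the highest at 24 h was Jak2 (1.19 ± 0.15).

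The only ligand genes read were Ifng and Ifnb1, and both were at low levels. Ifng, which did not pass the filter, had 0 to 3 counts in each of the 21 libraries. Ifnb1 had 44, 115 and 18 counts, or 3.12, 4.33 and 3.35 CPM, after 4 h of FcMR and 7, 1 and 3 counts, or 1.01, 0.18 and 0.348 CPM, after 4 h of isotype. The groups did not overlap, and the log2 fold change was 2.79 ± 0.56 (edgeR adjusted p = 0.00194). At 12 h and 24 h no library of either arm held more than 0.242 CPM, and the difference was not called (adjusted p = 0.739 and 0.709).

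Among 24 partners in lipid anchoring, membrane targeting and inflammasomes, 4, 6 and 8 rose and 2, 2 and 2 fell with FcMR over isotype, with medians of −0.04, 0.10 and 0.14. The called genes were thus 6, 8 and 10 of 24, beside 17.7%, 16.1% and 20.9% of all tested genes called in either direction. Casp4, the mouse caspase-11 that senses lipopolysaccharide in the cytosol, was higher by 0.74 ± 0.15, 1.29 ± 0.15 and 1.14 ± 0.15 (edgeR adjusted p = 0.00186, 7.16e-06 and 2.45e-05). Gsdmd, the pore-forming protein it cleaves, gave 0.26 ± 0.12, −0.11 ± 0.12 and 0.053 ± 0.12 (adjusted p = 0.16, 0.651 and 0.83). Nlrp3, the inflammasome sensor, had the highest change of those called at 4 h and 12 h (1.25 ± 0.089 and 1.39 ± 0.089), and Casp4 at 24 h. The lowest were Gabarapl1, of the autophagy machinery, at 4 h (−0.35 ± 0.080), Pycard, the inflammasome adaptor, at 12 h (−0.63 ± 0.16), and Atg7, an enzyme of autophagy, at 24 h (−0.67 ± 0.18).

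The genes most like the 10, by Pearson correlation over the 21 libraries with their mean standardised log2 level, were Gbp4 (r = 0.991), Rassf4 (0.983), Parp11 (0.983), Nmi (0.978) and Acod1 (0.978). Acod1, which makes itaconate in activated macrophages, had a mean of 131 CPM in untreated cells, 5445 CPM with FcMR and 2469 CPM with isotype at 4 h, and 2372 and 488 CPM at 24 h. The libraries of a group share treatment, time and preparation, so these correlations describe a shared profile only.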

How the data were processed

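RNA was sequenced as 75 bp single-end reads. Per the submitters' processing notes, CASAVA 1.8.2, kallisto 0.44.0 and DESeq2 (version not given in the sources used here) were used with mm10/GRCm38. The deposited raw table holds estimated counts per gene as whole numbers, and no row sums to under 10. The deposited normalized signal table equals the raw one divided by factors of gene and library, whose geometric mean was 1 for each of the 13034 genes without a 0, so it served only for the alternative with the authors' factors. Identifiers were matched to GENCODE M21 symbols for 23187 of 23250 genes.

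The estimated counts deposited by the authors were fitted with edgeR 4.0.16 (R 4.3.3): TMM, filterByExpr with a minimum count of 10, a quasi-likelihood fit of 21 libraries with 1 coefficient per group, and Benjamini-Hochberg adjustment over 13468 genes, called at 0.05. For correlations, log2 CPM had a prior count of 2. The smallest library had 5532225 counts, and 3 counts there are 0.541 CPM. The edgeR fit was tested on simulated counts for FcMR against isotype at 4 h only. These counts had the same dispersion for all genes and no tilt with GC content. The joint test was not run on them. The 10 genes and all lists were chosen with earlier results of these data known. All 10 were named, and from the lists a few set genes and the highest and lowest called gene at each time, plus the 5 genes most like the 10 (average log2 CPM at or above 1). Gbp2b's and Dcn's libraries, Gbp10, Fcgr1, Cd14 and the genes of the closing section were chosen after their values were seen. One gene of the interferon signalling list is not reported here by name. Alternatives were RLE and the authors' factors, other filters, DESeq2 1.42.0, limma-voom (limma 3.58.1), only the groups compared, the replicate number as a block, a GC correction, and leaving out libraries. Upstream windows came from RefSeq.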

Additional observations from a re-analysis of the deposited data

Results flagged for a closer look

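For 3 of the 10 genes the FcMR difference was not the same at 4, 12 and 24 h by the joint edgeR test. The difference at 24 h exceeded that at 4 h by 1.64 on the log2 scale for Gbp2 (adjusted p = 7.26e-05), by 1.04 for Gbp3 (adjusted p = 0.00376) and by 0.79 for Gbp6 (adjusted p = 0.0346). All 3 FcMR libraries at 24 h lay above all 3 isotype libraries for each of them. Gbp2 and Gbp3 kept their calls under each alternative run for the joint test. Gbp6 lost its call under several, and its counts rest on sequence that it mostly shares with other genes.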

How the results depend on the processing

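The direction and call of the 10 genes held in 502 of 510 results for FcMR against isotype, 500 of 510 for isotype against untreated, 267 of 290 for the joint test and 338 of 340 for 24 h against 4 h. The joint test called 5 of the 10 with a GC correction and 5 with the replicate block and GC correction together, against 3. Its calls over all tested genes rose as well, to 2918 and 3131 in these fits, against 1484. Leaving out 1 library gave 2 to 3 calls of the 10 in the joint test. For FcMR against isotype at 24 h it gave 7 to 9. The sign of Gbp8 at 12 h, FcMR against isotype, reversed without replicate 1 of FcMR 12 h (−0.060; 0.198 at most on leaving out 1 library) and without both libraries out of title order (−0.059); the cause was not tested. Under the GC correction Gbp8 was also called for isotype against untreated at 12 h (0.25) and 24 h (−0.27).

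Counts over all tested genes moved by over 1.5 times in some fits. For FcMR against isotype at 4 h, 2390 became 3675 with the GC correction, 3877 with block and GC correction, 868 with only the groups compared, 3898 without both libraries out of order and 1589 without replicate 2 of FcMR 4 h. At 12 h 2169 became 3325 and 3497 with the GC corrections. For isotype against untreated at 4 h, 4792 became 2881 with only the groups compared. The joint test's 1484 ranged from 925 with no filter to 3131 with block and GC correction, and was 973 without replicate 2 of FcMR 4 h and 2294 without replicate 3 of isotype 4 h.

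With the replicate number as a block 9, 9 and 8 of the 10 genes were higher with FcMR, and 10 were called for isotype against untreated at 4 h, where Gbp8 was added (−0.41, adjusted p = 0.0438). Deviations of same-numbered libraries had a mean correlation of −0.107 to 0.106 over 8 comparisons. Single values ran from −0.184 (FcMR 24 h against 4 h) to 0.338 (isotype against untreated at 4 h). With 3 libraries a group and no label on what the number means, this cannot decide whether the numbers pair the libraries. Depth limits Ifnb1, Ifng and untreated Iigp1, with few counts each.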

Other observations

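A few genes outside the 10, picked after their values were seen, had an FcMR difference that changed with time in the opposite direction to that of Gbp2 and Gbp3. The joint edgeR test asks for any change between 4, 12 and 24 h, and the direction given is only the sign of 24 h minus 4 h. It called 2 of the 15 interferon signalling genes and 2 of the 19 other GTPases with a smaller difference at 24 h. With a larger one it called 0 and 1. Of all tested genes it called 4.78% with a smaller and 6.24% with a larger difference. The FcMR difference was smaller at 24 h than at 4 h for Irf2, a regulatory factor that can repress interferon targets (−0.82 on the log2 scale, adjusted p = 8.12e-05), for Stat2 (−0.73, adjusted p = 0.00724) and for Mx1, an antiviral dynamin-like GTPase (−1.05, adjusted p = 0.00436). Mx1 gave 0.99 ± 0.14, 0.60 ± 0.14 and −0.064 ± 0.14 for FcMR over isotype at 4, 12 and 24 h, while Mx2, the other Mx gene, was not called by the joint test (−0.25, adjusted p = 0.723) and was still higher with FcMR at 24 h (0.78 ± 0.16, edgeR adjusted p = 0.00148). Stat2 gave 0.78 ± 0.10, 0.27 ± 0.10 and 0.057 ± 0.10. Irf2 was higher with FcMR at 4 h (0.55 ± 0.076, edgeR adjusted p = 6.54e-05) and lower at 24 h (−0.27 ± 0.077, adjusted p = 0.018).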
